A study of Caenorhabditis elegans with 24 samples.

Results

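The genes described here are 52 genes for the contractile apparatus of C. elegans muscle and for its attachment, chosen by gene name as a list of sarcomere and attachment genes. All 52 were found among the 46778 genes of the count table, and all 52 were among the 14865 genes tested. They comprise 47 genes of body wall muscle or of muscle in general and 5 genes listed for the pharynx, namely myo-1, myo-2, myo-5, tnt-4 and tnc-2. Whole animals were sequenced as young adults grown at 20 °C, with 6 biological replicates, each RNA of pooled animals, for each of 4 genotypes. These were double mutants carrying unc-1(vlt10) and nhr-1(vlt16), unc-1(vlt10) mutants, nhr-1(vlt16) mutants and the 40Q strain, whose libraries are labelled wildtype. Every genotype, the 40Q strain included, carried an integrated transgene that expresses a stretch of 40 glutamines fused to YFP from the unc-54 promoter in body wall muscle, so no library represents muscle without the repeat. The vlt10 allele came from a chemical mutagenesis screen for altered aggregation of this protein. The comparisons ask how the RNA for the tissue that makes the 40Q protein differed between these genotypes, and whether the pharynx, where that protein is not made, differed likewise.

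Body wall muscle of the worm is obliquely striated. Its thick filaments are built of myosin and paramyosin around M-lines, its thin filaments of actin, tropomyosin and troponin are anchored in dense bodies, and integrin complexes under the dense bodies and M-lines join the filaments through the basement membrane to the cuticle. The pharynx is a separate feeding pump whose muscle uses its own myosin heavy chains and troponins. The stomatin UNC-1 acts in neurons and muscle at electrical synapses, and NHR-1 is a nuclear hormone receptor.

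The libraries held 19098458 to 30467364 counts, and the double mutants were the deepest with a median of 27525192. The mutated genes went with the labels in each library. The unc-1 mRNA was at 0.812 to 1.02 CPM (counts scaled to library size, after TMM normalization) in double mutants, 0.652 to 1.45 CPM in unc-1(vlt10) and 5.49 to 7.45 CPM in nhr-1(vlt16), against 6.55 to 9.51 CPM in 40Q. The nhr-1 mRNA was at 12.4 to 16.9 CPM in double mutants, 22.7 to 30.4 CPM in unc-1(vlt10) and 11.4 to 16.4 CPM in nhr-1(vlt16), against 25.4 to 29.9 CPM in 40Q. Defining markers of body wall muscle (unc-54, myo-3, unc-15, hlh-1) and of the pharynx (myo-1, myo-2, tnt-4, tnc-2) were present in every library. No row of the table was named for YFP, GFP or 40Q, and transgene RNA was not analysed here. For the 52 genes, double mutant replicate 2 and 40Q replicate 3 were high for their genotype, with 50 and 47 of 52 above its mean and median log2 deviations of 0.14 and 0.10. Double mutant replicate 5 and 40Q replicate 2 were low, with 3 and 6 of 52 above and median deviations of -0.09 and -0.07. In RNA from whole animals, less muscle and less of an mRNA per muscle cell cannot be told apart.

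The levels of the 52 genes spanned a wide range, compared here per gene length as FPKM (fragments scaled to transcript length and library depth). Over the 24 libraries, act-2 had the highest mean with 816 FPKM, followed by the body wall troponin C gene pat-10 with 791 FPKM and act-4 with 688 FPKM. The major body wall myosin gene unc-54, the gene whose promoter drives the transgene, ranked 9 with 330 FPKM, and myo-3 ranked 36 with 20.3 FPKM. The pharyngeal heavy chains myo-2 and myo-1 were at 20.9 and 19.9 FPKM, close to myo-3. The lowest were hlh-1, the MyoD homologue that specifies body wall muscle, with 3.79 FPKM, and the titin-like gene ttn-1 with 1.63 FPKM.

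Most of the 52 genes were lower in the mutants than in 40Q, and all of the shifts were below 2-fold. In unc-1(vlt10) against 40Q, 31 fell and 7 rose by edgeR's quasi-likelihood test (adjusted p < 0.05), where 22.6% of all genes tested were lower and 25.1% higher. In nhr-1(vlt16) against 40Q, 42 were lower and 0 higher, against 22% and 20.5% of all genes. In double mutants against 40Q, 26 were lower and 0 higher, against 17.3% and 14.9% of all genes. The 2 counts of 0 higher were 1 each at an unadjusted p under 0.05 and 0 each by DESeq2. The median log2 fold change of the 52 was -0.19 in unc-1(vlt10), -0.24 in nhr-1(vlt16) and -0.13 in double mutants, where the median of all genes was 0.02, 0.00 and 0.00. The 7 genes higher in unc-1(vlt10) were myo-3, act-2, tni-1, unc-60, unc-87, dim-1 and hlh-1, and their number depended on the scaling and the libraries: it was 3 to 8 over the 24 possible reference libraries of TMM, 2 without unc-1(vlt10) replicate 1, and 4 without 40Q replicate 2 or replicate 6 when the reference was kept. The 3 comparisons share the same 6 libraries of 40Q, so their counts are not separate observations. The labels of the 40Q libraries begin with the letter A and those of all mutant libraries with R. What these letters stand for is not stated. If 40Q was handled apart, this cannot be told apart from a difference shared by all mutants, and it would enter the interaction too.

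All 6 mutant libraries lay below all 6 of 40Q for 24 of the 52 genes in unc-1(vlt10), for 31 in nhr-1(vlt16) and for 5 in double mutants. The share of all genes tested that lay so was not counted, so whether these counts are unusual is not known. By the study's threshold of a fold change above 2 together with adjusted p < 0.05, 0 of the 52 genes passed in any comparison of genotypes, with 0 also by DESeq2 and at an unadjusted p. Among all genes that threshold was passed by 5.95% in unc-1(vlt10), 2.7% in nhr-1(vlt16) and 2.02% in double mutants against 40Q, and by 6% in double mutants against unc-1(vlt10).

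**Figure D1:**
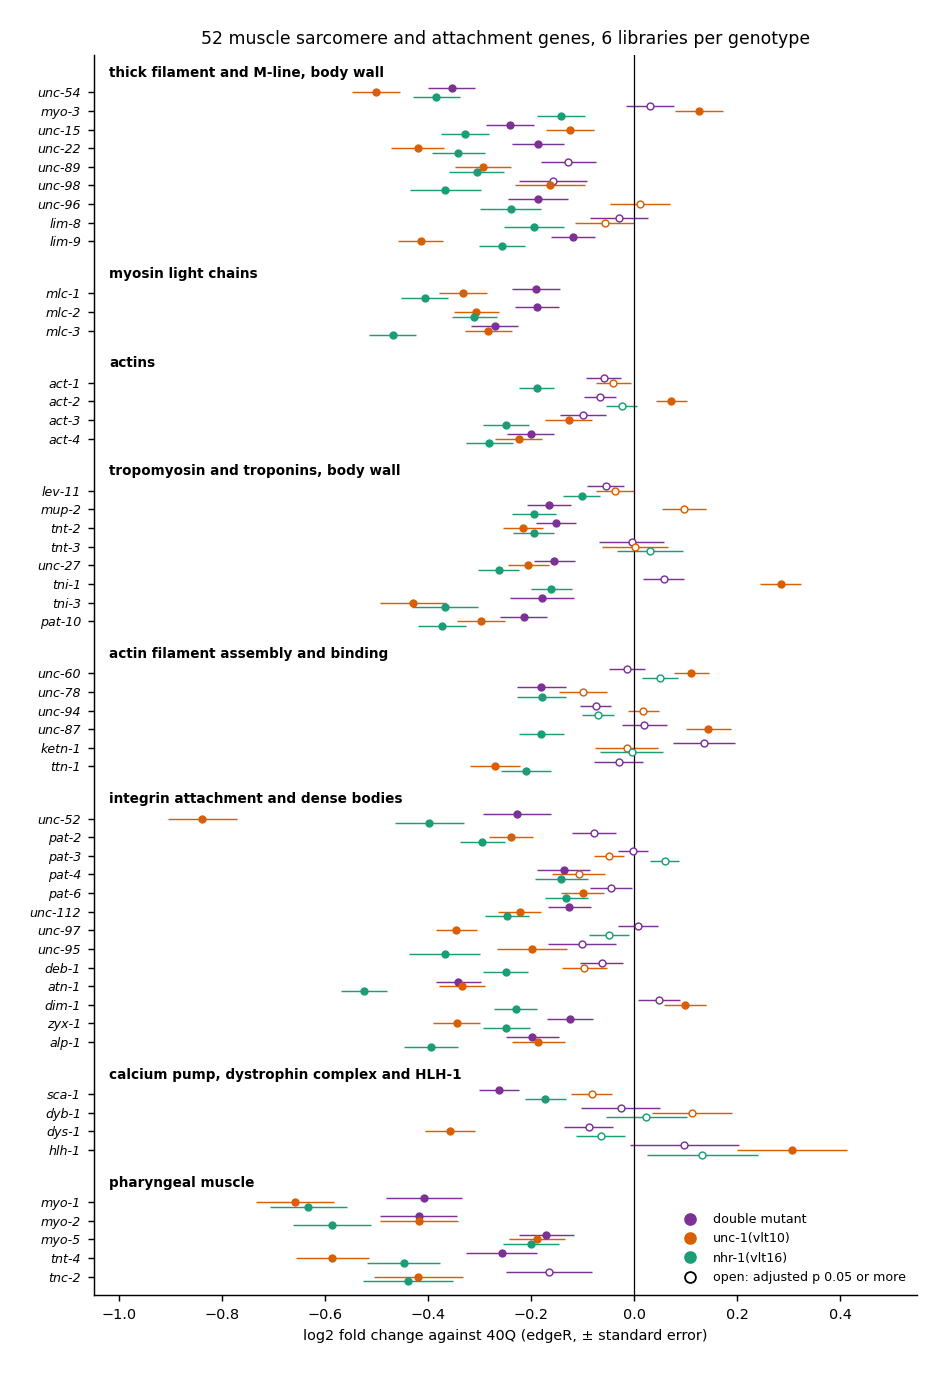
Log2 fold change against 40Q (x axis, edgeR, bars are the standard error, 6 libraries per genotype) for each of the 52 genes (rows, grouped by role) in double mutants, unc-1(vlt10) and nhr-1(vlt16). Most points lie left of 0, filled points passed the adjusted p of 0.05, and the point farthest left is unc-52 in unc-1(vlt10) at -0.84.

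Among the thick filament and M-line genes of body wall muscle, the 2 myosin heavy chains differed in their response. The gene unc-54 encodes myosin heavy chain B, the bulk of body wall myosin, and was lower than in 40Q in each mutant. It was at 1742, 1966 and 2238 CPM (lowest, median and highest library) in double mutants, 1614, 1808 and 1843 CPM in unc-1(vlt10) and 1835, 1919 and 2010 CPM in nhr-1(vlt16), against 2308, 2487 and 2726 CPM in 40Q. No mutant library reached the lowest 40Q library, while the 3 mutant genotypes overlapped each other. The log2 fold change against 40Q was -0.35 ± 0.05 (SE) in double mutants (adjusted p = 4.73e-07), -0.50 ± 0.05 in unc-1(vlt10) (adjusted p = 1.07e-10) and -0.38 ± 0.05 in nhr-1(vlt16) (adjusted p = 1.13e-07).

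The gene myo-3 encodes myosin heavy chain A, which forms the middle of the thick filament. It was at 114.6, 126 and 138 CPM in double mutants, 120, 133 and 152 CPM in unc-1(vlt10) and 108, 111 and 117 CPM in nhr-1(vlt16), against 114, 125 and 133 CPM in 40Q. Every mutant genotype overlapped 40Q, and nhr-1(vlt16) held the lowest values. The log2 fold change was 0.03 ± 0.05 in double mutants (adjusted p = 0.662), 0.13 ± 0.05 in unc-1(vlt10) (adjusted p = 0.0259) and -0.14 ± 0.05 in nhr-1(vlt16) (adjusted p = 0.0157). The rise in unc-1(vlt10) passed the test with 17 of the 24 libraries as the reference of the TMM scaling and missed it with the others, and it was lost without 40Q replicate 2 or 6 or unc-1(vlt10) replicate 3 (adjusted p up to 0.106).

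Since both genes encode body wall heavy chains, their ratio in each library does not depend on how libraries are scaled. In FPKM, unc-54 over myo-3 was 14.98, 15.31 and 15.97 (lowest, median and highest) in double mutants, 11.82, 13.26 and 13.70 in unc-1(vlt10) and 16.32, 17.12 and 17.54 in nhr-1(vlt16), against 18.9997, 20.01 and 21.12 in 40Q. The 4 genotypes did not overlap in this ratio, with 40Q highest and unc-1(vlt10) lowest. The transgene is driven by the unc-54 promoter, and whether any of its reads were counted to unc-54 was not tested. The ratio was chosen after the fold changes of both genes were seen, and it is given as a description with no test.

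**Figure D2:**
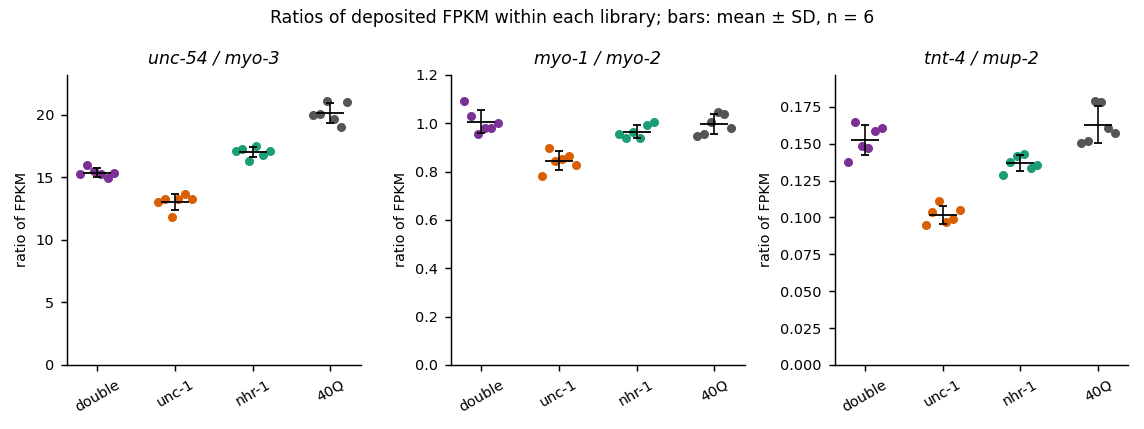
Ratio of deposited FPKM within each library (y axis, no unit) for unc-54 over myo-3, myo-1 over myo-2 and tnt-4 over mup-2 in the 4 genotypes, where points are libraries and bars the mean and SD of 6. For unc-54 over myo-3 the 40Q libraries lie at 18.9997 to 21.12 and the unc-1(vlt10) libraries at 11.82 to 13.70.

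Of the other thick filament genes, unc-22 (twitchin), unc-15 (paramyosin) and lim-9 were lower than in 40Q in all 3 mutants. Their log2 fold changes were -0.19, -0.24 and -0.12 in double mutants, -0.42, -0.12 and -0.41 in unc-1(vlt10) and -0.34, -0.33 and -0.26 in nhr-1(vlt16). The call of unc-15 in unc-1(vlt10) was lost without 40Q replicate 1 or 3 or unc-1(vlt10) replicate 1 or 2 (adjusted p up to 0.0891). That of lim-9 in double mutants was lost without 40Q replicate 3 or 4 or any double mutant replicate but 2 (adjusted p up to 0.149). The group had 9 genes, of which 1 rose and 6 fell in unc-1(vlt10), 9 were lower in nhr-1(vlt16) and 5 were lower in double mutants.

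The myosin light chains were lower in all 3 mutants for each of the 3 genes. The essential light chain gene mlc-3 was at 370, 386 and 456 CPM in double mutants, 385, 399 and 407 CPM in unc-1(vlt10) and 337, 351 and 362 CPM in nhr-1(vlt16), against 433, 490 and 531 CPM in 40Q. Both single mutants lay wholly below 40Q, and the double mutants overlapped it through their highest library. Its log2 fold change was -0.27 ± 0.05 in double mutants (adjusted p = 2.93e-05), -0.28 ± 0.05 in unc-1(vlt10) (adjusted p = 5.23e-06) and -0.47 ± 0.05 in nhr-1(vlt16) (adjusted p = 2.35e-09). The regulatory light chain genes mlc-1 and mlc-2 are near-identical and lie close together on chromosome X, at 17459210-17460778 and 17455792-17456586 (WBcel235), so reads may be split between them and each value is uncertain. Their log2 fold changes were -0.19 and -0.19 in double mutants, -0.33 and -0.31 in unc-1(vlt10) and -0.41 and -0.31 in nhr-1(vlt16), all with adjusted p < 0.05.

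Of the 4 actin genes, unc-1(vlt10) had 2 lower and 1 higher, 3 were lower in nhr-1(vlt16) and 1 was lower in double mutants. With 4 genes, a count of 1 is near the shares of all genes given above. The 4 genes are near-identical in their coding sequence, so how reads were shared among them is uncertain. The genes act-1, act-2 and act-3 lie side by side on chromosome V between 11071690 and 11082415, and act-4 lies on chromosome X at 4960621-4964413 (WBcel235). The gene act-4 was at 985, 1054 and 1230 CPM in double mutants, 1050, 1066 and 1087 CPM in unc-1(vlt10) and 992, 1022 and 1073 CPM in nhr-1(vlt16), against 1111, 1264 and 1377 CPM in 40Q. It was lower in each mutant, by -0.20 ± 0.05, -0.22 ± 0.05 and -0.28 ± 0.05 on the log2 scale in the same order. The most abundant of them, act-2, was at 992, 1037 and 1082 CPM in double mutants, 1061, 1155 and 1182 CPM in unc-1(vlt10) and 1042, 1071 and 1109 CPM in nhr-1(vlt16), against 1042, 1079 and 1142 CPM in 40Q. Every genotype overlapped 40Q, and the rise of act-2 in unc-1(vlt10), 0.07 ± 0.03 (adjusted p = 0.0497), was lost in DESeq2 and kept with 8 of 24 reference libraries. The gene act-1 was lower in nhr-1(vlt16) by -0.19 ± 0.03 (adjusted p = 5.77e-05), and act-3 was lower in unc-1(vlt10) by -0.13 ± 0.04 and in nhr-1(vlt16) by -0.25 ± 0.05, the call in unc-1(vlt10) being lost without its replicate 3 (adjusted p = 0.0686). Opposite-strand transcripts overlap 11.9% of the exon bases of act-1 and 17.5% of those of act-3, and it is not stated whether strand was used in counting. Outside the actins, they overlap 19.2% of the exon bases of the pharyngeal gene tnc-2 and 12% of those of mlc-2. A gene on the same strand overlaps 7.81% of those of unc-60.

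Tropomyosin and the troponins set the calcium switch of the thin filament. The troponin I genes went in opposite directions in unc-1(vlt10). The gene tni-1 was at 39.5, 40.9 and 44.7 CPM in double mutants, 47.2, 48.4 and 49.2 CPM in unc-1(vlt10) and 31.8, 36.1 and 37.8 CPM in nhr-1(vlt16), against 36.8, 39.8 and 41.4 CPM in 40Q. It was the only gene of the 52 for which all 6 unc-1(vlt10) libraries lay above all 6 of 40Q, with a log2 fold change of 0.28 ± 0.04 (adjusted p = 5.11e-07). In nhr-1(vlt16) it was lower by -0.16 ± 0.04 (adjusted p = 0.00206).

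The related gene tni-3 was at 27.5, 29.3 and 36.8 CPM in double mutants, 24.3, 25.5 and 26.1 CPM in unc-1(vlt10) and 24.8, 26.7 and 28.3 CPM in nhr-1(vlt16), against 30.6, 33.8 and 40.7 CPM in 40Q. Both single mutants lay wholly below 40Q, with log2 fold changes of -0.43 ± 0.06 in unc-1(vlt10) (adjusted p = 1.72e-06) and -0.37 ± 0.06 in nhr-1(vlt16) (adjusted p = 3.81e-05). The group had 8 genes, of which 1 rose and 4 fell in unc-1(vlt10), 7 were lower in nhr-1(vlt16) and 5 were lower in double mutants. The tropomyosin gene lev-11 and the troponin T gene tnt-3 moved little, with log2 fold changes of -0.06 and 0.00 in double mutants, -0.04 and 0.00 in unc-1(vlt10) and -0.10 and 0.03 in nhr-1(vlt16), of which the last value for lev-11 passed the test (adjusted p = 0.0248), but not without 40Q replicate 1 or 3 or nhr-1(vlt16) replicate 5 (adjusted p up to 0.0865).

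Of the 6 genes for actin filament assembly and binding, unc-1(vlt10) had 1 lower and 2 higher, against 22.6% and 25.1% of all genes tested. In nhr-1(vlt16) 3 were lower and in double mutants 1, against 22% and 17.3% of all genes. The counts in unc-1(vlt10) and double mutants are near these shares. The calponin-like gene unc-87 was at 251, 261 and 301 CPM in double mutants, 280, 291 and 312 CPM in unc-1(vlt10) and 227, 232 and 249 CPM in nhr-1(vlt16), against 247, 264 and 289 CPM in 40Q. All of these ranges overlapped that of 40Q, and the log2 fold change was 0.14 ± 0.04 in unc-1(vlt10) (adjusted p = 0.00665) and -0.18 ± 0.04 in nhr-1(vlt16) (adjusted p = 0.00131). The gene ttn-1 was at 59.6, 62.8 and 69.8 CPM in double mutants, 49.98, 53.1 and 60.7 CPM in unc-1(vlt10) and 51.1, 55.8 and 59.8 CPM in nhr-1(vlt16), against 60.7, 63.3 and 71.2 CPM in 40Q. Both single mutants lay wholly below 40Q. The gene was lower in unc-1(vlt10) by -0.27 ± 0.05 (adjusted p = 2.98e-05) and in nhr-1(vlt16) by -0.21 ± 0.05 (adjusted p = 0.000884).

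The attachment genes held the largest single shift. The gene unc-52, on chromosome II at 14647321-14684456 (WBcel235), encodes perlecan, the basement membrane proteoglycan to which muscle integrins attach. It was at 179, 239 and 271 CPM in double mutants, 137, 150 and 165 CPM in unc-1(vlt10) and 196, 205 and 215 CPM in nhr-1(vlt16), against 246, 267 and 303 CPM in 40Q. The unc-1(vlt10) libraries lay below every other library, the nhr-1(vlt16) libraries lay between them and 40Q, and the double mutants overlapped 40Q. The log2 fold change was -0.23 ± 0.07 in double mutants (adjusted p = 0.00843), -0.84 ± 0.07 in unc-1(vlt10) (adjusted p = 5.31e-12) and -0.40 ± 0.07 in nhr-1(vlt16) (adjusted p = 2.04e-05).

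Other attachment genes differed in which mutant they moved. The alpha-actinin gene atn-1, a component of dense bodies, was at 118, 129 and 139 CPM in double mutants, 122, 129 and 139 CPM in unc-1(vlt10) and 106, 113 and 123 CPM in nhr-1(vlt16), against 150, 161 and 177 CPM in 40Q. All 3 mutants lay wholly below 40Q, with log2 fold changes of -0.34 ± 0.04 in double mutants (adjusted p = 4.28e-07), -0.33 ± 0.04 in unc-1(vlt10) (adjusted p = 1.99e-07) and -0.52 ± 0.04 in nhr-1(vlt16) (adjusted p = 1.70e-10). The gene unc-97, which encodes the LIM protein PINCH of the integrin complex, was at 46.9, 48.2 and 51.1 CPM in double mutants, 36.8, 37.96 and 38.7 CPM in unc-1(vlt10) and 42.9, 46.4 and 50.2 CPM in nhr-1(vlt16), against 46.0, 48.1 and 50.5 CPM in 40Q. Only unc-1(vlt10) lay apart, by -0.35 ± 0.04 against 40Q (adjusted p = 1.14e-08), while nhr-1(vlt16) and double mutants were at -0.05 ± 0.04 and 0.01 ± 0.04 (adjusted p = 0.325 and 0.908).

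Of the 13 attachment genes, unc-1(vlt10) had 9 lower and 1 higher, 11 were lower in nhr-1(vlt16) and 6 were lower in double mutants. The gene that was higher, dim-1, rose by 0.10 ± 0.04 (adjusted p = 0.0479), a call lost in DESeq2 and kept with 8 of 24 reference libraries. The integrin beta gene pat-3 did not pass the test in any mutant, with log2 fold changes of 0.00, -0.05 and 0.06 in double mutants, unc-1(vlt10) and nhr-1(vlt16). Its partner pat-2, the integrin alpha chain, was lower by -0.24 in unc-1(vlt10) and by -0.29 in nhr-1(vlt16).

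Among the remaining body wall genes, the dystrophin gene dys-1 was at 58.6, 64.3 and 70.0 CPM in double mutants, 48.5, 50.5 and 60.4 CPM in unc-1(vlt10) and 61.9, 65.7 and 66.9 CPM in nhr-1(vlt16), against 64.2, 68.3 and 70.9 CPM in 40Q. Its unc-1(vlt10) libraries lay wholly below 40Q, and the other mutants overlapped it. The gene was lower in unc-1(vlt10) by -0.36 ± 0.05 (adjusted p = 3.18e-07) and missed the test in the other 2 mutants. The calcium pump gene sca-1 was lower by -0.26 in double mutants, was at -0.08 in unc-1(vlt10) and was lower by -0.17 in nhr-1(vlt16). The transcription factor gene hlh-1 was at 3.61, 3.96 and 4.69 CPM in double mutants, 4.02, 4.94 and 5.14 CPM in unc-1(vlt10) and 3.54, 4.26 and 4.56 CPM in nhr-1(vlt16), against 2.94, 3.86 and 4.80 CPM in 40Q. All ranges overlapped, and the log2 fold change in unc-1(vlt10) was 0.31 ± 0.11 (adjusted p = 0.0181), a call lost without 40Q replicate 2 or replicate 3 (adjusted p up to 0.0555).

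The pharyngeal genes were lower as well. All 5 were lower in unc-1(vlt10) and in nhr-1(vlt16), and 4 of 5 in double mutants, where tnc-2 was at -0.17 (adjusted p = 0.135). The median log2 fold change of the 5 was -0.26 in double mutants, -0.42 in unc-1(vlt10) and -0.45 in nhr-1(vlt16), beside -0.12, -0.13 and -0.23 for the other 47. No test of pharyngeal against body wall genes was made, since genes are not replicates.

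The pharyngeal myosin gene myo-1 was at 109, 131 and 159 CPM in double mutants, 97.03, 110 and 123 CPM in unc-1(vlt10) and 102, 110 and 121 CPM in nhr-1(vlt16), against 155, 166 and 196 CPM in 40Q. Both single mutants lay wholly below 40Q, and the highest double mutant library overlapped it. Its log2 fold change was -0.41 ± 0.07 in double mutants (adjusted p = 7.78e-05), -0.66 ± 0.07 in unc-1(vlt10) (adjusted p = 1.02e-08) and -0.63 ± 0.07 in nhr-1(vlt16) (adjusted p = 9.12e-08).

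The second pharyngeal myosin gene, myo-2, was at 97.03, 129 and 150 CPM in double mutants, 104.9, 126 and 142 CPM in unc-1(vlt10) and 104.03, 111.9 and 120 CPM in nhr-1(vlt16), against 157, 161 and 186 CPM in 40Q. All 3 mutants lay wholly below 40Q. The log2 fold change was -0.42 ± 0.07 in double mutants (adjusted p = 6.44e-05), -0.42 ± 0.07 in unc-1(vlt10) (adjusted p = 2.66e-05) and -0.59 ± 0.08 in nhr-1(vlt16) (adjusted p = 3.90e-07). The troponin T gene tnt-4 was at 31.0, 38.6 and 43.7 CPM in double mutants, 27.8, 30.3 and 32.9 CPM in unc-1(vlt10) and 29.0, 33.6 and 36.5 CPM in nhr-1(vlt16), against 39.5, 43.7 and 53.0 CPM in 40Q. On the log2 scale the fold change was -0.26 ± 0.07 in double mutants, -0.59 ± 0.07 in unc-1(vlt10) and -0.45 ± 0.07 in nhr-1(vlt16). The smallest change of the 5 in unc-1(vlt10) was that of myo-5, -0.19 ± 0.05, a myosin heavy chain gene that was at -0.17 ± 0.05 in double mutants and at -0.20 ± 0.05 in nhr-1(vlt16). The pharyngeal heavy chains also changed relative to each other. In FPKM, myo-1 over myo-2 was 0.954 to 1.09 in double mutants, 0.783 to 0.899 in unc-1(vlt10) and 0.938 to 1.00 in nhr-1(vlt16), against 0.947 to 1.05 in 40Q, so that unc-1(vlt10) lay below all other libraries. The troponin T ratio of the pharyngeal tnt-4 over the body wall gene mup-2 was 0.138 to 0.165 in double mutants, 0.0948 to 0.111 in unc-1(vlt10) and 0.129 to 0.143 in nhr-1(vlt16), against 0.151 to 0.179 in 40Q. This ratio depends on the body wall gene taken. In unc-1(vlt10) against 40Q, mup-2 was at 0.10 on the log2 scale, while the body wall troponin T gene tnt-2 was at -0.22. No ratio to tnt-2 was formed. For the heavy chains, myo-1 plus myo-2 over unc-54 plus myo-3 was 0.10004 to 0.125 in double mutants, 0.112 to 0.129 in unc-1(vlt10) and 0.1003 to 0.108 in nhr-1(vlt16), against 0.116 to 0.131 in 40Q, with unc-1(vlt10) and double mutants overlapping 40Q and nhr-1(vlt16) below it. These ratios are descriptions, with no test.

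A further list of 3 pharyngeal genes was mixed. The troponin I gene tni-4 was lower in each mutant, by -0.27 in double mutants, -0.39 in unc-1(vlt10) and -0.48 in nhr-1(vlt16). The gene pha-4, a FoxA factor that specifies the pharynx, was lower by -0.20 in double mutants, higher by 0.25 in unc-1(vlt10) and lower by -0.24 in nhr-1(vlt16), and lower by -0.44 in double mutants against unc-1(vlt10). The homeobox gene ceh-22 did not pass in any comparison.

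**Figure D3:**
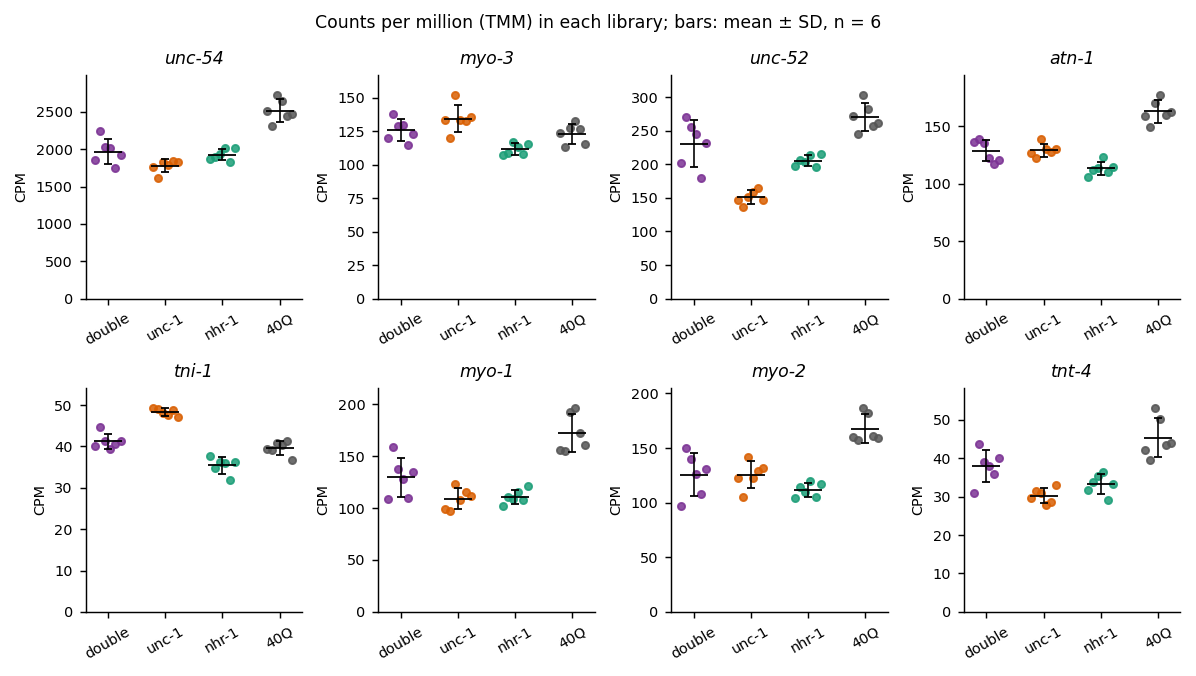
CPM after TMM scaling (y axis) in every library for unc-54, myo-3, unc-52, atn-1, tni-1, myo-1, myo-2 and tnt-4 in the 4 genotypes, where points are libraries and bars the mean and SD of 6. For unc-52 the unc-1(vlt10) libraries sit at 137 to 165 CPM, below every library of the other genotypes, and for myo-2 all 40Q libraries sit above the rest.

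The next comparison asks what removal of nhr-1 did in unc-1(vlt10) animals. In double mutants against unc-1(vlt10), 17 of the 52 genes were higher and 9 lower, against 21.6% and 21.7% of all genes tested, with a median log2 fold change of 0.03. The directions were mixed. All 6 double mutant libraries lay above all 6 of unc-1(vlt10) for 6 genes and below them for 3. Such separation was not counted over all genes, so these counts are a description only. The count of 17 fell to 11 without double mutant replicate 2, and to 14 when the scaling reference and the genes tested were kept.

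The largest difference was that of unc-52, which was higher in double mutants by 0.61 ± 0.07 (adjusted p = 4.49e-09), followed by unc-97 with 0.35 ± 0.04 (adjusted p = 4.95e-09) and tnt-4 with 0.33 ± 0.07 (adjusted p = 0.00028). The gene dys-1 was higher by 0.27 ± 0.05 and tni-3 by 0.25 ± 0.06. Among the genes raised in unc-1(vlt10), act-2, tni-1, unc-60 and unc-87 were lower in double mutants, while myo-3, dim-1 and hlh-1 missed the test. The gene tni-1 was lower by -0.23 ± 0.04 (adjusted p = 1.44e-05), with no overlap of the libraries. The gene unc-87 was lower by -0.12 ± 0.04 (adjusted p = 0.0193). The call of unc-87 was lost without unc-1(vlt10) replicate 1 or double mutant replicate 1, 5 or 6 (adjusted p up to 0.059). This comparison uses the same unc-1(vlt10) libraries that marked these genes as raised, so part of a lower value is built in. The same holds for a higher value of genes lowered in unc-1(vlt10). For unc-54 the difference was 0.15 ± 0.05 (adjusted p = 0.00963), with overlapping libraries, and for atn-1 and myo-2 it was -0.01 ± 0.04 and 0.00 ± 0.07 (adjusted p = 0.914 and 0.995).

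The interaction term tests whether the change that goes with unc-1(vlt10) differs with and without nhr-1(vlt16), as the difference of double mutants from nhr-1(vlt16) minus the difference of unc-1(vlt10) from 40Q. It was above 0 for 35 of the 52 genes and below 0 for 2 at adjusted p < 0.05, against 23.6% and 24.1% of all genes tested, with a median of 0.29 beside a median of 0.00 over all genes. It passed 2-fold for 1 gene, unc-52, at 1.01 ± 0.09 (adjusted p = 3.23e-10), where 8.84% of all genes passed. Without nhr-1(vlt16), the difference that goes with unc-1(vlt10) had a median of -0.19 over the 52 genes and was below 0 for 40 of them. With nhr-1(vlt16), its median was 0.13, and it was above 0 for 42 of them, within a range of -0.09 to 0.28. The difference with nhr-1(vlt16) was estimated from the same fit and not tested per gene. Signs of both differences were not counted over all genes. These 2 differences share no library, but the interaction holds the 40Q libraries that also enter the comparisons with 40Q. The count for the interaction is therefore not separate from the counts of genes lower than in 40Q.

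By role, the interaction was above 0 for all 5 pharyngeal genes and all 3 myosin light chains, for 11 of 13 attachment genes, 7 of 9 thick filament genes, 3 of 4 actins and 4 of 8 tropomyosin and troponin genes. It was above 0 for 1 of 6 genes of actin filament assembly, where 1 was below 0, and for 1 of 4 genes of the group of calcium pump, dystrophin complex and HLH-1, whose median was -0.09. After unc-52 the largest values were those of myo-1 with 0.88 ± 0.11 (adjusted p = 4.51e-08) and tnt-4 with 0.78 ± 0.10 (adjusted p = 1.65e-07). For unc-54 it was 0.53 ± 0.06 (adjusted p = 6.71e-08), while for myo-3 it was 0.05 ± 0.07 (adjusted p = 0.595). It was 0.55 ± 0.07 for mlc-1, 0.52 ± 0.06 for atn-1, 0.62 ± 0.09 for tni-3 and 0.45 ± 0.07 for ttn-1. The 2 genes below 0 were unc-60 with -0.17 and act-2 with -0.11 ± 0.04 (adjusted p = 0.0278), the call of act-2 being lost without 40Q replicate 3, unc-1(vlt10) replicate 1, nhr-1(vlt16) replicate 6 or double mutant replicate 5 (adjusted p up to 0.0621). For hlh-1 it was -0.34 ± 0.15 (adjusted p = 0.0587).

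**Figure D4:**
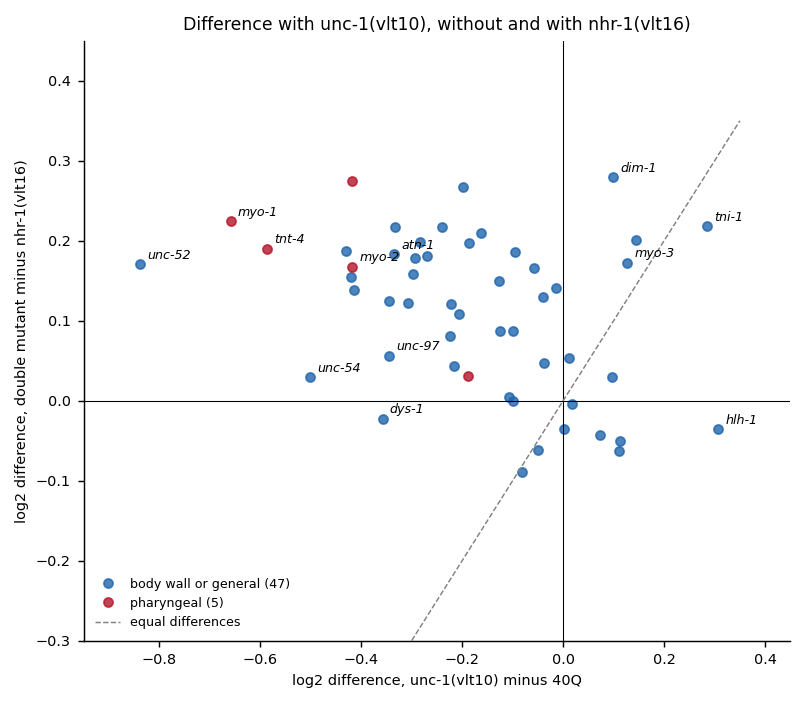
Log2 difference of double mutants minus nhr-1(vlt16) (y axis) against that of unc-1(vlt10) minus 40Q (x axis) for the 52 genes, with the 5 pharyngeal genes in red and the dashed line marking equal differences. Of the 40 genes left of 0, 36 lie above 0 on the y axis, and unc-52 lies farthest left at -0.84. Values on the y axis were estimated with no test, and signs were not counted over all genes.

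Within genotypes, the correlation of their deviations from the genotype mean had a median r of 0.40 over 1326 pairs of genes, and 83.7% of pairs were above 0. Over the 9564 genes tested at or above the level of the lowest of the 52, the median r was 0.0013 and 50.2% of pairs were above 0. Libraries that were high or low for most of the 52, given above, enter these correlations. The highest was that of mlc-1 with act-4 at 0.95, and myo-1 with myo-2 reached 0.92. The pairs share the 24 libraries and their scaling, and near-identical genes may share reads. The median within-genotype SD on the log2 scale was 0.087, between 0.041 for pat-3 and 0.17 for hlh-1, beside 0.089 for all genes tested at or above the level of the lowest of the 52.

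**Figure D5:**
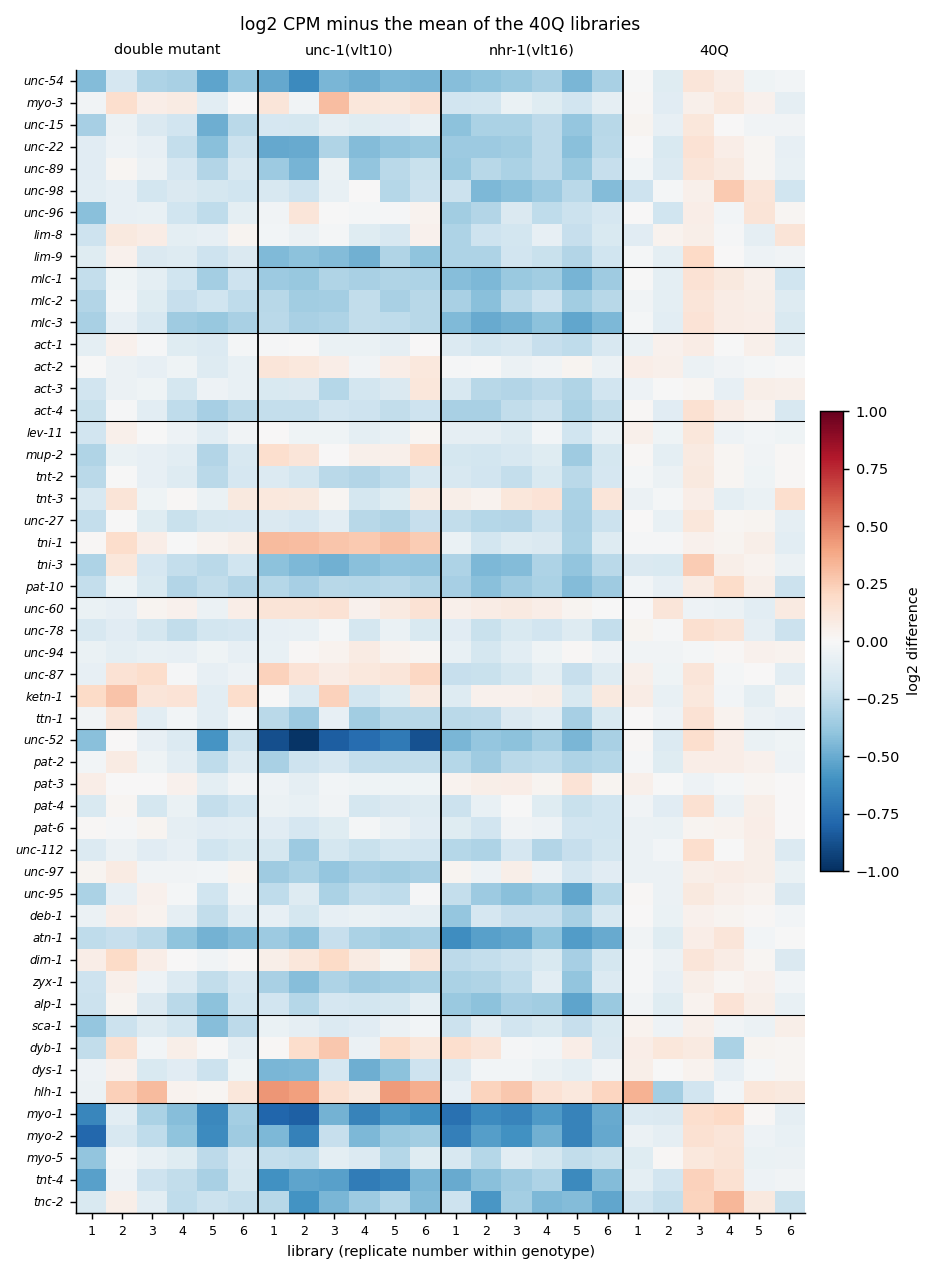
Log2 CPM minus the mean of the 6 libraries of 40Q (colour, from -1 in blue to 1 in red) for the 52 genes (rows, black lines part the roles) in each of the 24 libraries (columns). The unc-1(vlt10) and nhr-1(vlt16) columns are mostly blue, and double mutant replicate 2 and 40Q replicate 3 are redder than the rest of their genotype for most genes.

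Other genes of muscle, counted from a list of 19, showed 12 lower and 0 higher for unc-1(vlt10), 13 lower and 0 higher in nhr-1(vlt16), 11 lower and 0 higher in double mutants against 40Q, and 10 higher and 1 lower in double mutants against unc-1(vlt10). They included the calcium release and entry genes unc-68 (ryanodine receptor), egl-19 (calcium channel) and csq-1 (calsequestrin), with log2 fold changes of -0.21, -0.17 and -0.22 in double mutants, -0.59, -0.54 and -0.46 in unc-1(vlt10) and -0.19, -0.35 and -0.36 in nhr-1(vlt16), of which the value for egl-19 in double mutants did not pass the test (adjusted p = 0.0729). Of 8 basement membrane genes tested, 8 were lower in unc-1(vlt10), 5 in nhr-1(vlt16) and 6 in double mutants, where 1 was higher. The shares of all genes tested in these comparisons are given above.

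Marker genes of other tissues moved as well. Of 8 intestinal markers, unc-1(vlt10) had 5 lower and 1 higher, 6 were lower in nhr-1(vlt16), and 4 were lower and 1 higher in double mutants. Their summed level was 1759 to 2031 FPKM in double mutants, 1474 to 1616 FPKM in unc-1(vlt10) and 1595 to 1762 FPKM in nhr-1(vlt16), against 1667 to 1900 FPKM in 40Q. Of 8 neuronal markers, 6 fell in double mutants, unc-1(vlt10) had 4 lower and 1 higher, and 5 fell in nhr-1(vlt16). Their sum was 402 to 432 FPKM in double mutants, 492 to 524 FPKM in unc-1(vlt10) and 418 to 440 FPKM in nhr-1(vlt16), against 437 to 492 FPKM in 40Q. The median log2 fold change of these 8 in unc-1(vlt10) was nevertheless -0.16. A sum of FPKM weighs each marker by its level and can part from most of its markers. Of 8 germline and oocyte markers, none rose or fell in double mutants (0 of 8), 4 rose and 1 fell in unc-1(vlt10) and 5 rose in nhr-1(vlt16). Their sum was 2526 to 2768 FPKM in double mutants, 2766 to 2861 FPKM in unc-1(vlt10) and 2774 to 3033 FPKM in nhr-1(vlt16), against 2449 to 2717 FPKM in 40Q. Of 8 hypodermal markers, 2 rose in double mutants, 2 rose and 1 fell in unc-1(vlt10) and 0 passed in nhr-1(vlt16). Their sum was 1164 to 1450 FPKM in double mutants, 925 to 991 FPKM in unc-1(vlt10) and 1124 to 1275 FPKM in nhr-1(vlt16), against 1190 to 1390 FPKM in 40Q, so that all unc-1(vlt10) libraries lay below the others. No marker of these lists was at 0 in all libraries of a genotype, and the part of tissue make-up in the lower muscle genes was not tested. Of 6 sperm markers tested, 1 rose and 1 fell in double mutants, 1 rose in unc-1(vlt10), and 1 rose and 4 fell in nhr-1(vlt16), where the median log2 fold change was -0.68 and msp-3, a major sperm protein gene, passed 2-fold at -1.15. The sum of the 8 sperm markers was 24.8 to 30.6 FPKM in double mutants, 28.8 to 34.5 FPKM in unc-1(vlt10) and 16.1 to 20.0 FPKM in nhr-1(vlt16), against 24.5 to 40.2 FPKM in 40Q, so that the nhr-1(vlt16) libraries lay below all others.

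The interaction was counted in these lists too, beside 23.6% above and 24.1% below 0 among all genes tested. It was above 0 for 7 of 8 basement membrane genes, 5 of 8 intestinal markers with 1 below, 4 of 8 hypodermal markers with 3 of them past 2-fold, 3 of 8 neuronal markers with 1 below and 3 of 6 sperm markers. Of 8 germline and oocyte markers it was below 0 for 6. Their part in the interaction of the 52 muscle genes was not tested.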

How the data were processed

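RNA of whole young adults was sequenced in 24 libraries, 6 per genotype, and libraries were grouped by their labels. Reads were aligned by the authors to assembly WBcel235, as the study's methods state, and the submitters' processing notes name HISAT2 2.0.5, HTSeq 0.6.1 and DESeq2 1.24.0. The authors deposited counts per gene without normalization, used for all tests, and FPKM values, used for levels between genes and for ratios. They also deposited tables of their own comparisons, with log2 fold changes and p-values, which were not used. Strand setting and the handling of reads that fit several genes are not given in the sources used here. Genes were tested in R 4.3.3 with edgeR 4.0.16 (TMM, filterByExpr, quasi-likelihood F-tests, Benjamini-Hochberg over 14865 genes) in 1 fit of all libraries with genotype as its term. CPM values are scaled by TMM, and log2 CPM used a prior count of 2. DESeq2 1.42.0, other scalings and filters, a replicate block, fits of 2 genotypes and omission of libraries served as alternatives. The test was checked on simulated data, where a required recovery was set for 2-fold changes only. Smaller changes, the size of nearly all those called among the 52 genes, had no such requirement. Positions come from Ensembl release 115. Libraries of 19098458 counts or more leave the lowest gene, hlh-1, the least precise. The 52 genes, their grouping and all lists were chosen with earlier results of these data known. Genes named with values were the myosin heavy chains, near-identical genes, hlh-1, the 5 largest called changes in unc-1(vlt10) against 40Q and the 3 largest in each other comparison, and the extremes of each role group in unc-1(vlt10) against 40Q, 23 in all, and others were chosen after their values were seen. A planned description of promoter motifs was not run.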

Additional observations from a re-analysis of the deposited data

Results flagged for a closer look

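In 6 of 92 sets of 6 libraries checked (23 genes in 4 genotypes), 1 library lay apart from the others, where chance sets about 1 in 20 apart. In unc-1(vlt10), unc-54 was at 1614 CPM in replicate 2 beside 1760 to 1843 CPM in the others, act-2 at 1061 CPM in replicate 4 beside 1139 to 1182 CPM, act-3 at 196 CPM in replicate 6 beside 149 to 164 CPM, and ttn-1 at 60.7 CPM in replicate 3 beside 49.98 to 53.4 CPM. In double mutant replicate 2, tni-1 was at 44.7 CPM beside 39.5 to 41.4 CPM and tni-3 at 36.8 CPM beside 27.5 to 30.3 CPM. That library held high levels of most of the 52 genes.

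For 19 of the 23 genes the difference that goes with unc-1(vlt10) was not the same with and without nhr-1(vlt16), by the interaction term of edgeR's quasi-likelihood test. These genes were named partly for large changes, the interaction included, so the count says nothing of other genes. Of all genes tested, 23.6% were above and 24.1% below 0. The log2 value was 1.01 for unc-52, 0.88 for myo-1, 0.78 for tnt-4, 0.62 for tni-3, 0.59 for myo-2, 0.55 for mlc-1, 0.53 for unc-54 and 0.52 for atn-1. It was 0.48 for mlc-3, 0.45 for ttn-1, 0.43 for mlc-2, 0.40 for unc-97, 0.33 for dys-1, 0.31 for act-4, 0.28 for act-3, 0.22 for myo-5, 0.18 for dim-1 and 0.17 for act-1. It was below 0 for act-2, at -0.11.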

How the results depend on the processing

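Every called fold change of a named gene kept its direction under all alternatives run. Of the calls among the 52 genes, 31 of 38 in unc-1(vlt10), 40 of 42 in nhr-1(vlt16) and 19 of 26 in double mutants against 40Q, 24 of 26 in double mutants against unc-1(vlt10) and 35 of 37 for the interaction were kept in all fits, the choice of scaling reference and omission of libraries aside. With a fold change above 2 as well, each count fell to 0, except the 1 gene above 0 for the interaction. With total counts in place of TMM, 1 gene was higher in nhr-1(vlt16) and 2 in double mutants against 40Q. That scaling moved the median of all genes by less than 0.1 but their split in unc-1(vlt10) to 5316 higher and 2747 lower, against 3737 and 3366 with TMM, and in double mutants to 3405 and 1821, against 2214 and 2576. In nhr-1(vlt16) it was 3761 and 2832, against 3042 and 3269, and for the interaction 3121 above and 4241 below 0, against 3503 and 3584. Without a filter, 1 gene was below 0 for the interaction. With the replicate block, 1 gene was higher in double mutants against 40Q and no named call changed, and same-numbered libraries deviated together with a median r of -0.015 over 36 pairs (-0.15 to 0.17), so the numbers do not pair them.

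The following was chosen after seeing the data. TMM took nhr-1(vlt16) replicate 6 as its reference with all libraries, but another library, mostly unc-1(vlt10) replicate 3, once any was left out, which shifted all genes slightly. With that reference and all libraries, 4 genes were higher in unc-1(vlt10) and 1 was below 0 for the interaction. Over all 24 references the higher genes in unc-1(vlt10) numbered 3 to 8 and the lower ones 29 to 36, with median shifts of all genes of -0.032 to 0.012. Leaving out each library in turn, counts with the reference chosen anew and with it held spanned 2 to 5 and 4 to 6 higher and 29 to 34 and 28 to 32 lower in unc-1(vlt10), 0 higher and 43 and 40 to 43 lower in nhr-1(vlt16), 0 to 1 higher and 23 to 37 and 21 to 28 lower in double mutants against 40Q, 11 to 18 and 14 to 18 higher and 7 to 10 lower in double mutants against unc-1(vlt10), and 35 to 36 above and 1 to 3 below 0 for the interaction. The 37 was without double mutant replicate 2, with 28 when the reference was held. With the reference held, omission of a library also ended larger calls: hlh-1 (0.31) in unc-1(vlt10) in 2 of 12 omissions and unc-98 (-0.16) in 8, tni-3 (-0.18) in double mutants against 40Q in 7, and tnc-2 (0.25) in double mutants against unc-1(vlt10) in 1, that of double mutant replicate 2. Among the fits with all libraries, those lost were unc-15, unc-98, act-2, act-3, pat-6, unc-95 and dim-1 in unc-1(vlt10), lev-11 and pat-4 in nhr-1(vlt16), unc-96, lim-9, tni-3, pat-4, unc-112, zyx-1 and myo-5 in double mutants, unc-15 and ketn-1 in double mutants against unc-1(vlt10), and lim-8 and act-2 for the interaction.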
